A study of Oryza sativa with 18 samples.

Results

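The genes described here are those with the longest exonic sequence in the expression tables of a rice callus RNA-seq study. They were chosen by length alone: an exonic length of 6000 bases or more in the table of the pCPL comparison, together with an MSU locus identifier (a name beginning with LOC_Os). Of 38335 entries in that table, 28884 carried such an identifier, and 83 of these met the length rule. No expression value entered the choice. All 83 were also listed, with the same lengths, in the table of the pOE comparison. The YIL25 table, whose rows run over chromosomes 1 and 2 and the start of chromosome 3, held 23 of them; no other chromosome was analysed here for YIL25.

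All samples were calli, masses of dividing cells grown from rice tissue on a medium with the synthetic auxin 2,4-D. They were of Teqing, an indica cultivar, or of lines derived from it, and were collected after 21 days of subculture in the dark. YIL25 is an introgression line of Teqing that carries segments of common wild rice (Oryza rufipogon) on the short arms of chromosomes 2, 3 and 5. pCPL is Teqing transformed with the YIL25 genomic fragment of BOC1 (its own promoter, coding region and downstream region), and pOE is Teqing transformed with the YIL25 coding sequence of BOC1 under a Ubiquitin promoter. The study found no difference between Teqing and YIL25 in the coding region of BOC1. Each line is paired by the study with its own untransformed Teqing group: pCPL with Teqing2, pOE with Teqing3 and YIL25 with Teqing1. Whether a line and its Teqing were sequenced together is not stated. There are 3 libraries in each of the 6 groups. By the study's methods the 3 libraries of a group are biological replicates. Neither the methods nor the labels say how these were separated, or how many transformation events stand behind pCPL and pOE, so the p-values measure the spread between these libraries only.

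BOC1 is a member of the SIMILAR TO RCD ONE family, plant proteins known from stress responses, and the study examined it for its part in callus browning, the darkening of callus as phenolic compounds are oxidised. Long genes are of interest in RNA-seq for a reason of measurement as well as biology. FPKM divides the fragments of a gene by its length and by the depth of the library, so at the same FPKM a gene of this length collects more reads than a short one and its level has less counting error. Eukaryotic genes with very long transcripts often encode large scaffold, motor, membrane-trafficking or chromatin proteins, and annotated loci of this length can also hold transposable elements or merged gene models.

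What the 83 genes encode could be given for only 3 of them, for which the study's annotation has words: LOC_Os01g15560 (an expressed protein), LOC_Os09g37240 (a protein with a glutathione S-transferase C-terminal domain) and LOC_Os08g10244 (an unclassified retrotransposon). A check of whether these genes encode very large proteins was therefore not made. Among 14 genes of the table whose annotation in the study names a large protein, such as HEAT repeat, BEACH or SNF2 proteins, the longest exonic length was 4215 bases, and 0 of 14 reached 6000. The genes are accordingly called by their length and by locus. The gene lists published with the study are of genes it had called changed in these same libraries.

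The 83 genes had exonic lengths of 6069 to 16029 bases, with a median of 6539. Only 6 reached 8000 bases. Their median span on the chromosome, introns included, was 9761 bases (IRGSP-1.0). They lay on all 12 chromosomes, from 4 genes on chromosomes 5 and 11 to 13 on chromosome 1. In 70 of the 83 models the span exceeded the exonic length, and in 13 the span and the length were equal, which means a model without introns. The interval of 17 genes overlapped that of another listed entry; since the strand setting of the counting was not given in the sources used here, reads of such a gene and its neighbour cannot be told apart.

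In the pCPL and pOE tables each library held 16620557 to 26298032 reads over genes, and 0.320% to 0.420% of these fell in the 83 genes. BOC1 (LOC_Os03g12820), at 1823 bases not one of the 83, stood at 102, 99.96 and 103 FPKM in pCPL, with 58.0, 57.5 and 57.4 in Teqing2 and a ratio of means of 1.76. In pOE it stood at 577, 576 and 584 FPKM against 64.7, 68.4 and 63.3 in Teqing3, a ratio of 8.84. The 3 tables were normalised separately by the authors, so levels from different tables are set side by side without a test.

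Most of the long genes were expressed above 1 FPKM in callus. The median over all 83 was 2.44 FPKM in Teqing2, 2.77 in pCPL, 3.05 in Teqing3 and 2.32 in pOE. Of the 83, 49 had a mean above 1 FPKM in Teqing2, 52 in pCPL, 51 in Teqing3 and 49 in pOE; 46 did so in all 4 groups and 30 in none. That share, 59.0% in Teqing2, was near the 62.3% of all entries with a locus identifier. Among the genes above 1 FPKM, however, the median level was 7.42 FPKM in Teqing2, 7.64 in pCPL, 8.55 in Teqing3 and 6.68 in pOE, whereas the median of all entries with a locus identifier was 12.1, 11.7, 12.1 and 11.3 in the same groups. At the other end, 9 of the 83 were listed at 0 in all 12 libraries and another 9 had at most 10 reads in any library. Level went with gene structure: 52 of the 70 models with introns exceeded 1 FPKM in at least 1 of the 4 groups, compared with 1 of the 13 without introns.

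**Figure D1:**
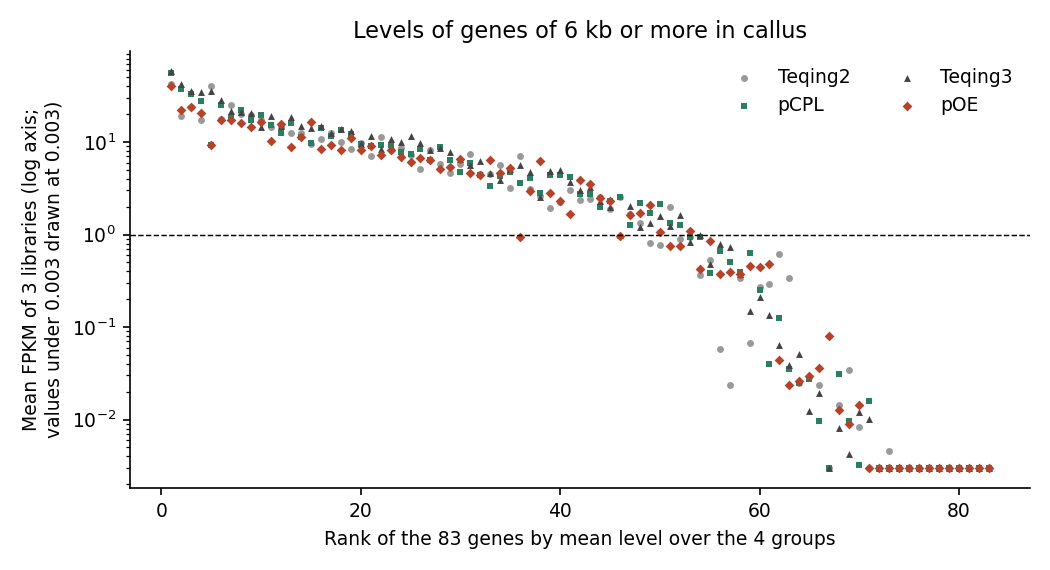
Mean FPKM (log axis) of each of the 83 genes in Teqing2, pCPL, Teqing3 and pOE, each point a mean of 3 libraries, with genes ordered by their mean over the 4 groups and values under 0.003 drawn at 0.003. The dashed line marks 1 FPKM; 46 genes lie above it in all 4 groups, and at the right 9 genes are listed at 0 in every library.

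LOC_Os01g74610 (chromosome 1, 43202561-43215251; 6876 bases) was the most abundant of the long genes. It stood at 41.6, 42.6 and 44.0 FPKM in Teqing2, 54.9, 56.0 and 54.6 in pCPL, 59.9, 58.1 and 59.7 in Teqing3, and 41.6, 39.7 and 40.0 in pOE. The line and its own Teqing did not overlap in either table, and the order was opposite in the 2: higher in pCPL (log2 fold change 0.36, SE 0.0384, limma adjusted p = 2.13e-05) and lower in pOE (-0.54, SE 0.0403, limma adjusted p = 2.11e-06). In the YIL25 table it stood at 73.3, 71.3 and 71.3 FPKM in Teqing1 and 70.1, 73.5 and 75.6 in YIL25, and these groups overlapped (log2 fold change 0.02, limma adjusted p = 0.617; the value was negative, -0.0035, without YIL25 replicate 3).

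Next came LOC_Os07g36940 (chromosome 7, 22114961-22123129; 6114 bases), which had the largest increase of the tested long genes in pCPL on the log2(FPKM + 1) scale, although the lower genes LOC_Os02g44380, LOC_Os01g71106 and LOC_Os12g39980 had larger ratios of means (2.79, 2.28 and 2.13 against 1.96). Its libraries held 19.7, 19.1 and 19.0 FPKM in Teqing2 and 37.4, 38.8 and 36.8 in pCPL, while Teqing3 held 42.7, 40.2 and 44.4 and pOE 23.2, 22.2 and 21.7. Thus pCPL lay above its Teqing (log2 fold change 0.93, SE 0.0453, limma adjusted p = 9.8e-08) and pOE below its own (-0.89, SE 0.0530, limma adjusted p = 4.49e-07), both short of 2-fold. The 2 Teqing groups themselves stood at 19.3 ± 0.339 and 42.4 ± 2.13 FPKM (SD, n = 3 each), farther apart than either line and its control.

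LOC_Os02g47970 (chromosome 2, 29341254-29357890; 7434 bases) and LOC_Os01g60040 (chromosome 1, 34705486-34722561; 6628 bases) followed in abundance and had the same order of groups. LOC_Os02g47970 stood at 24.3, 22.8 and 24.9 FPKM in Teqing2, 31.9, 33.0 and 33.6 in pCPL, 35.1, 35.2 and 36.8 in Teqing3 and 24.8, 23.1 and 24.5 in pOE. LOC_Os01g60040 stood at 16.8, 17.1 and 17.5 FPKM in Teqing2, 27.3, 29.5 and 26.6 in pCPL, 33.9, 33.9 and 36.5 in Teqing3 and 20.9, 20.9 and 20.6 in pOE. For both genes pCPL was above Teqing2 and pOE below Teqing3 without overlap.

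Each line was then compared with its own Teqing group. The question was which of the long genes changed where a BOC1 transgene, or the YIL25 introgressions, had been added. Every gene whose mean exceeded 1 FPKM in the line or in its Teqing was tested with limma on log2(FPKM + 1), with Benjamini-Hochberg adjustment over all genes of the table, and a gene was called changed at a fold change of 2 or more and an adjusted p under 0.001, the thresholds of the study. The fold changes carry that added 1, so for low genes they come out smaller than the ratio of the means.

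In pCPL, 52 of the 83 long genes could be tested, 49 of them above 1 FPKM in both groups and 3 in pCPL only. Only 1 was called, LOC_Os10g14180, and it was lower, while 0 were called higher by limma. At an unadjusted p under 0.05, 24 were higher and 12 lower. These were the same counts as at an adjusted p under 0.05, given below with the shares over all genes. Over all 21659 genes tested, 7.84% were called higher, 5.97% lower and 13.8% in either direction. Most differences were small: 41 of the 52 had a log2 fold change under 0.5 in size. The median SE of the 52 was 0.0767, compared with 0.0872 over all genes. At an adjusted p under 0.05 with no fold threshold, 24 (46.2%) were higher and 12 (23.1%) lower. Over all genes these shares were 35.0% and 35.6% (70.6% in either direction). The libraries of the 2 groups did not overlap for 45 of the 52 genes (86.5%), beside 74.2% of all genes.

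The median log2 fold change of the 52 was 0.14 (range -1.99 to 0.93), with 33 positive and 19 negative values. Over all genes the median was -0.01. Median-of-ratios scaling left the median of the long genes at 0.14, and could hardly move it, since the libraries were already level over all genes. Once each library's trend of level with gene length was removed, this median flipped to -0.15, beside -0.05 over all genes. That step thus took more off the long genes than their median of 0.14. At an adjusted p under 0.05, 12 were then higher and 24 lower, and no share over all genes is given for that fit. With the trend left in, the median difference from the Teqing2 mean was 0.13 in each of the 3 pCPL libraries. It was between -0.0078 and 0.014 in the 3 Teqing2 libraries, whose own mean this is. These values restate the median of 0.14 library by library. Against the Teqing3 libraries, which belong to the pOE table, the median for the same genes was -0.16. With a pseudocount of 0.1 in place of 1, LOC_Os01g71106 and LOC_Os02g44380 were also called higher, at a log2 fold change of 1.16 and 1.37, which brings the count to 3. Over all 21659 genes, 2105 were then called higher and 1627 lower. A voom fit on the reads recovered from the FPKM values called LOC_Os01g71106, LOC_Os02g44380 and LOC_Os12g39980 (1.10) as well, 4 in all. It called 2463 higher and 1769 lower of 21648 genes. LOC_Os02g44380 and LOC_Os12g39980 passed the filter only through pCPL.

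In pOE, 52 long genes could be tested, 48 of them above 1 FPKM in both groups. Here 1 (1.92%) was called higher, LOC_Os03g06510, and 3 (5.77%) lower, LOC_Os10g14180, LOC_Os02g39910 and LOC_Os08g08000. Of these, LOC_Os02g39910 passed the filter only through Teqing3. Of all 22122 genes tested, 6.95% were called higher, 8.90% lower and 15.8% in either direction. Most of the long genes lay below Teqing3 by less than 2-fold. At an adjusted p under 0.05 without a fold threshold, 36 (69.2%) were lower and 6 (11.5%) higher. Over all genes these shares were 36.8% and 35.3% (72.1% in either direction). Without the length trend the counts of long genes were 18 lower and 15 higher, and no share over all genes is given for that fit. The libraries did not overlap for 47 of the 52 (90.4%), beside 75.1% of all genes. In 37 (71.2%) every pOE library was below every Teqing3 library, beside 38.4% of all genes.

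The median log2 fold change in pOE was -0.36 (range -1.83 to 1.03), with 15 positive and 37 negative values, beside -0.00099 over all genes. Median-of-ratios scaling left it at -0.36, and could hardly move it, since these libraries too were already level over all genes. Without the length trend it moved to -0.03, beside 0.05 over all genes. Single pOE libraries had medians of -0.35, -0.36 and -0.39 against the Teqing3 mean. Against the Teqing2 libraries of the pCPL table the median was -0.03. Leaving out Teqing3 replicate 1 lowered the count of calls from 4 to 2, since LOC_Os03g06510 and LOC_Os08g08000 then missed 2-fold, with log2 fold changes of 0.99 and -0.98. With a pseudocount of 0.1 there were 6 calls, with LOC_Os05g37350 and LOC_Os12g19370 added on the lower side. Over all 22122 genes, 1982 were then called higher and 2305 lower. Without the length trend there were 3 calls, beside 1539 higher and 1822 lower over all genes. The voom fit called 7, adding LOC_Os03g53220, LOC_Os05g37350 and LOC_Os12g19370 on the lower side, at -1.12, -1.12 and -1.09. It called 2341 higher and 2489 lower of 22120 genes. LOC_Os03g53220 passed the filter only through Teqing3, with means of 1.62 FPKM there and 0.744 in pOE, so its test in this direction is no independent evidence.

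In YIL25, 18 of the 23 listed long genes could be tested, 16 of them above 1 FPKM in both groups and 2 in YIL25 only. LOC_Os02g39910 was called higher, and LOC_Os03g02970 and LOC_Os01g11900 lower; 8.41% of all 8196 genes tested were called higher, 12.7% lower and 21.1% in either direction. At an adjusted p under 0.05 with no fold threshold, 11 (61.1%) were higher and 2 (11.1%) lower. Over all genes these shares were 29.5% and 43.2% (72.7% in either direction). The groups did not overlap for 13 of the 18 (72.2%), beside 76.4% of all genes. In 11 of the 18 (61.1%) every YIL25 library was above every Teqing1 library, beside 31.2% of all genes.

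The median of the 18 log2 fold changes was 0.23 (range -1.20 to 1.36), with 15 positive and 3 negative values. Over all genes the median was -0.13, and the long genes lay 0.36 above it. Without the length trend the difference was 0.18, but that fit held only the 5742 genes with a known length, not all 8196. Median-of-ratios scaling moved both medians, to 0.42 and 0.05. Since it applies 1 factor to all genes of a library, it could hardly change their difference, which stayed at 0.36. Under that scaling 52.8% of the calls over all genes were on the higher side, compared with 39.8% before it. Of the long genes, LOC_Os01g11900 then missed 2-fold (-0.93).

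**Figure D2:**
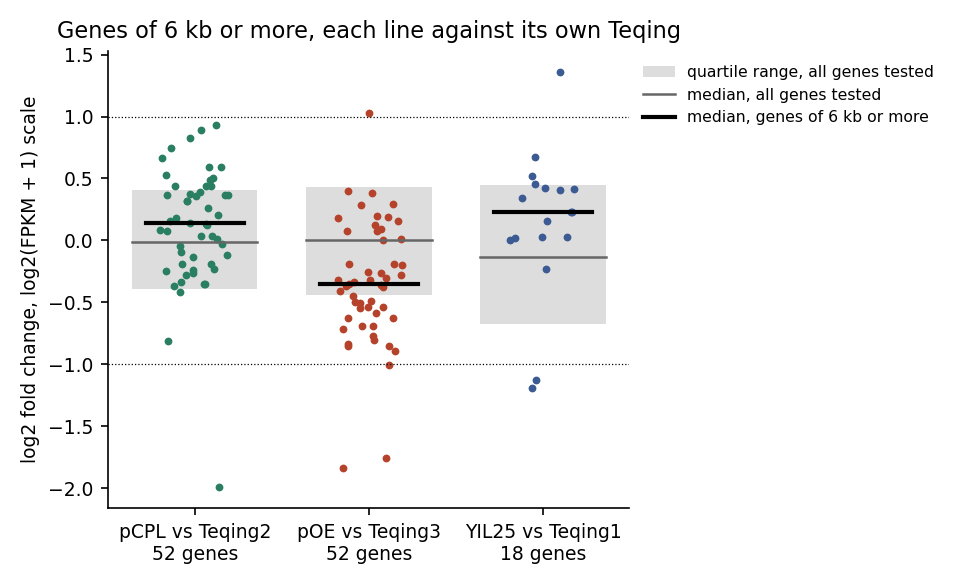
Log2 fold change, on the log2(FPKM + 1) scale, of each tested gene of 6 kb or more in pCPL against Teqing2 (52 genes), pOE against Teqing3 (52 genes) and YIL25 against Teqing1 (18 genes), with the median of these genes as a black bar and the median and quartile range of all genes tested in grey. Dotted lines mark 2-fold. The medians stand at 0.14, -0.36 and 0.23; the first flips to -0.15 without the trend of level with gene length.

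The largest change on the log2(FPKM + 1) scale was that of LOC_Os10g14180 (chromosome 10, 7685223-7696842; 7854 bases). Its level was 40.8, 39.5 and 39.4 FPKM in Teqing2 and 10.1, 8.87 and 8.91 in pCPL, and 34.8, 35.7 and 35.6 in Teqing3 and 8.99, 8.81 and 9.82 in pOE. All 6 transgenic libraries lay at or below 10.1 FPKM and all 6 Teqing libraries at or above 34.8. The log2 fold change was -1.99 in pCPL (SE 0.0600, limma adjusted p = 4.73e-09) and -1.83 in pOE (SE 0.0585, limma adjusted p = 8.35e-09), a fall of 4.30-fold and 3.84-fold in the mean. As a ratio of means the fall of LOC_Os02g39910 in pOE was larger, and with a pseudocount of 0.1 that gene stood at -2.45 in pOE against -2.09 for LOC_Os10g14180 in pCPL. It was the only long gene called in both tables. Its interval overlaps the entry Os10g0208600, and it lies outside the rows of the YIL25 table.

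LOC_Os02g39910 (chromosome 2, 24133183-24139373; 6191 bases, a model without introns) was the only long gene called in opposite directions. In Teqing3 it stood at 5.65, 5.83 and 5.31 FPKM and in pOE at 0.9995, 1.09 and 0.770, a log2 fold change of -1.76 (SE 0.112, limma adjusted p = 7.11e-07) and a fall of 5.88-fold in the mean. It passed the filter there through Teqing3 only, so its test in this direction is no independent evidence. In Teqing1 it stood at 4.75, 5.19 and 4.27 FPKM and in YIL25 at 13.9, 13.5 and 13.8, a log2 fold change of 1.36 (SE 0.0739, limma adjusted p = 7.64e-06). The pOE libraries were thus the lowest of all groups and the YIL25 libraries the highest. In pCPL, at 3.58, 3.73 and 3.40 FPKM against 6.61, 6.45 and 8.18 in Teqing2, it was 1.98-fold lower in the mean and not called (log2 fold change -0.82, SE 0.104, limma adjusted p = 7.47e-05). Among the 13 models without introns it was the one that exceeded 1 FPKM in the pCPL and pOE tables.

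LOC_Os03g06510 (chromosome 3, 3260107-3270386; 7851 bases) was the long gene called higher in pOE. Its level was 2.32, 2.68 and 2.62 FPKM in Teqing3 and 6.73, 5.87 and 6.10 in pOE (log2 fold change 1.03, SE 0.0983, limma adjusted p = 1.13e-05). In pCPL, 2.69, 2.90 and 2.92 FPKM, it overlapped Teqing2 at 2.75, 2.44 and 2.73 (log2 fold change 0.07, limma adjusted p = 0.525, and -0.21 without the length trend). YIL25, at 1.66, 1.73 and 1.42 FPKM, lay above Teqing1 at 0.835, 1.08 and 0.960 (log2 fold change 0.41, SE 0.123, limma adjusted p = 0.0207), short of a call, and passed the filter only through YIL25.

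LOC_Os08g08000 (chromosome 8, 4523794-4538717; 6504 bases) was called lower in pOE at the edge of the fold threshold. It stood at 19.2, 18.1 and 18.8 FPKM in Teqing3 and 9.35, 8.04 and 9.13 in pOE (log2 fold change -1.004, SE 0.0718, limma adjusted p = 1.59e-06), and the call was lost at -0.94 without pOE replicate 2 and at -0.69 without the length trend. In pCPL it was higher, with 16.1, 16.7 and 16.1 FPKM against 12.1, 13.0 and 12.1 in Teqing2 (log2 fold change 0.37, SE 0.0586, limma adjusted p = 0.000343).

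The 2 decreases called in YIL25 were in genes that were higher in the Teqing1 libraries than in any other group. LOC_Os01g11900 (chromosome 1, 6444246-6456068; 6539 bases) stood at 96.7, 105 and 98.0 FPKM in Teqing1 and 44.0, 44.2 and 47.5 in YIL25 (log2 fold change -1.13, SE 0.0473, limma adjusted p = 2.72e-06). LOC_Os03g02970 (chromosome 3, 1195075-1204839; 6583 bases) stood at 50.5, 56.9 and 51.0 FPKM in Teqing1 and 22.8, 22.6 and 21.96 in YIL25 (log2 fold change -1.20, SE 0.0534, limma adjusted p = 3.43e-06). In neither gene did the groups overlap.

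Their levels in the other tables were lower throughout. The means of LOC_Os01g11900 were 19.7 FPKM in Teqing2, 17.2 in pCPL, 20.8 in Teqing3 and 14.4 in pOE, and those of LOC_Os03g02970 were 11.5, 9.40, 8.46 and 7.30. The YIL25 table lists no gene length, and whether it used the same gene model for these 2 genes was not tested. LOC_Os03g02970 lies on the short arm of chromosome 3, an arm on which YIL25 carries a wild rice segment, and its interval overlaps the entry Os03g0121700.

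**Figure D3:**
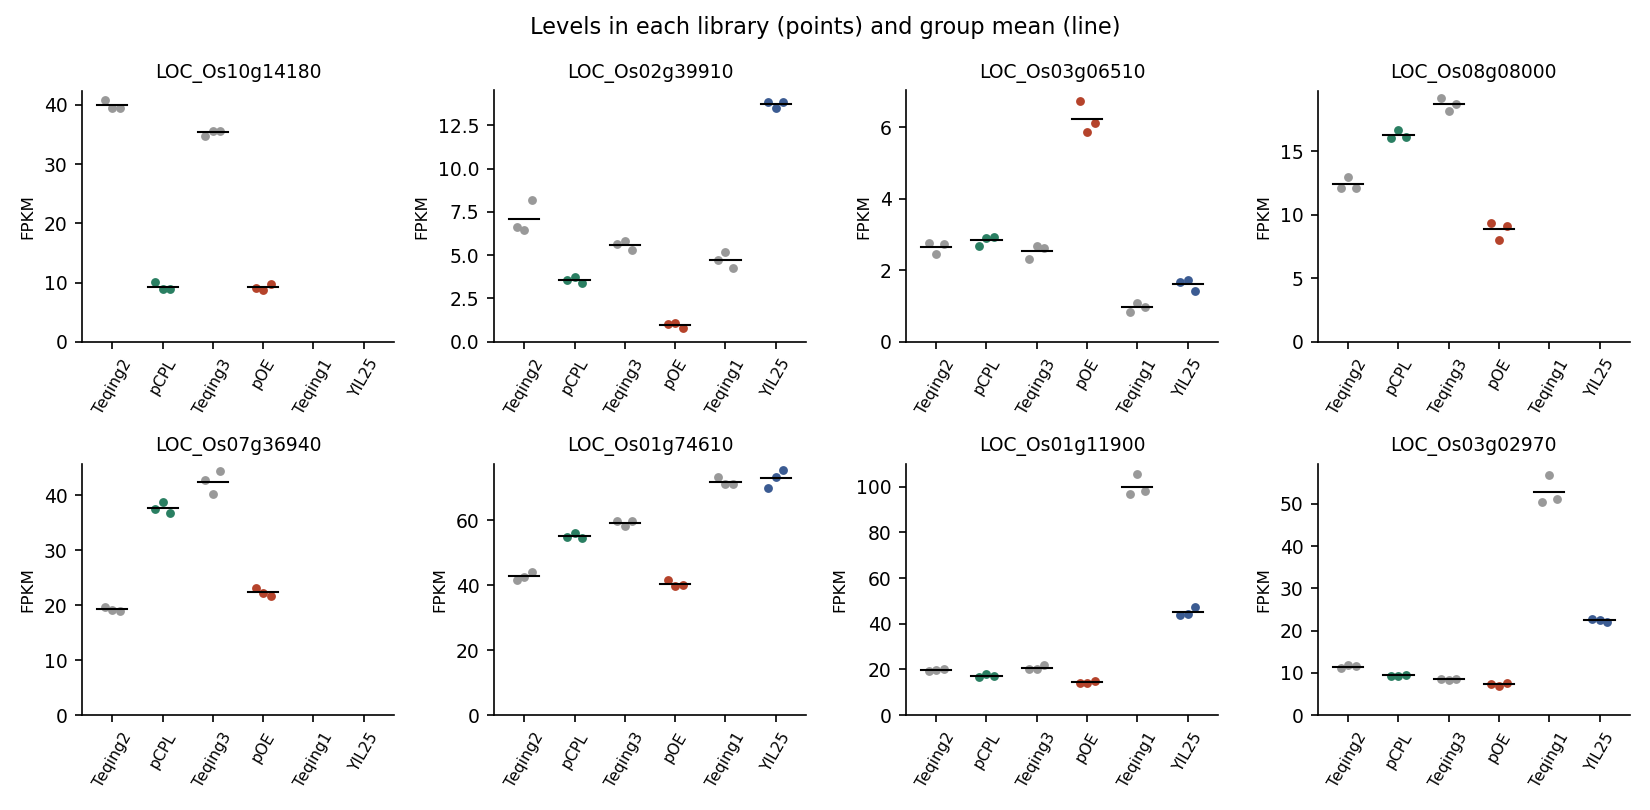
FPKM in each library (points, 3 a group) and group means (lines) for the 6 long genes called in at least 1 comparison and the 2 most abundant long genes, with linear axes that start at 0. LOC_Os10g14180 falls from 34.8 or more in all Teqing2 and Teqing3 libraries to 10.1 or less in pCPL and pOE; 3 of the genes are not in the YIL25 table and have no points for Teqing1 and YIL25.

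Because pCPL and pOE both carry an added BOC1 sequence from YIL25, the directions of the long genes in these 2 lines were set side by side. Their controls are separate groups. Of 51 long genes tested in both tables, 20 (39.2%) were higher in pCPL and lower in pOE at an adjusted p under 0.05 in each, a combination found in 22.3% of the 19898 genes tested in both. Just 1 (1.96%), LOC_Os06g25470, had the reverse combination, which 18.3% of all genes had. Lower in both were 8 long genes (15.7%), beside 8.02% of all genes. Higher in both were 2 (3.92%), LOC_Os06g02370 and LOC_Os12g39980, beside 5.70% of all genes. The names in this paragraph were chosen after their values were seen.

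**Figure D4:**
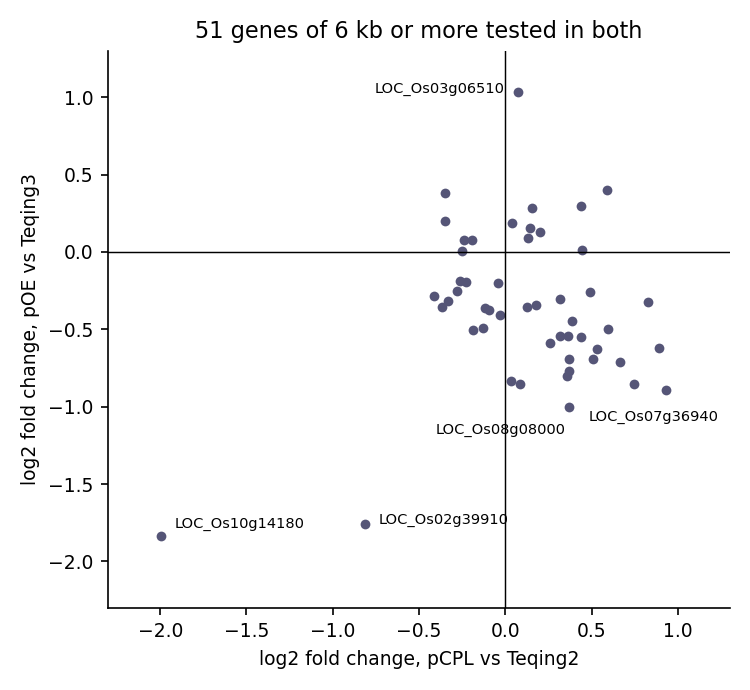
Log2 fold change of the 51 long genes tested in both tables, in pCPL against Teqing2 (horizontal axis) and pOE against Teqing3 (vertical axis), each point 1 gene. LOC_Os10g14180, at -1.99 and -1.83, lies apart from the other points, and 20 genes are higher in pCPL and lower in pOE at an adjusted p under 0.05 in both; removing the length trend turns the pCPL median from 0.14 to -0.15.

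LOC_Os06g25470 (chromosome 6; 7127 bases) stood at 4.30, 4.65 and 4.64 FPKM in Teqing2 and 3.75, 3.32 and 2.98 in pCPL, and at 4.55, 4.27 and 5.06 in Teqing3 and 6.83, 5.85 and 6.29 in pOE. It was therefore lower in pCPL (log2 fold change -0.35, limma adjusted p = 0.0115) and higher in pOE (0.38, limma adjusted p = 0.00556), with no overlap in either table. LOC_Os12g39980 (chromosome 12; 7755 bases) was low, with 0.889, 0.659 and 0.867 FPKM in Teqing2 against 1.76, 1.67 and 1.71 in pCPL, and 1.48, 1.35 and 1.22 in Teqing3 against 2.17, 2.04 and 2.08 in pOE. The line libraries lay above those of Teqing in both tables, but in the pCPL table the gene passed the filter only through pCPL.

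Only 15 long genes were tested in all 3 comparisons, and 0 of them were called in all 3. At an adjusted p under 0.05, 7 of the 15 (46.7%) were higher in YIL25 and pCPL and lower in pOE, and 0 had the opposite pattern. Over the 5489 genes tested in all 3 tables, these patterns were found in 13.4% and 15.3%. These 7, named after their values were seen, were LOC_Os01g55040, LOC_Os02g42200, LOC_Os01g71106, LOC_Os01g60040, LOC_Os01g01689, LOC_Os02g47970 and LOC_Os02g44380, the last of which passed the filter in the pCPL table only through pCPL. In LOC_Os01g60040 the log2 fold change was 0.52 in YIL25 (SE 0.0471, limma adjusted p = 7.68e-05), 0.67 in pCPL (SE 0.0541, limma adjusted p = 3.35e-06) and -0.71 in pOE (SE 0.0498, limma adjusted p = 1.37e-06). The smallest differences of the 7 were those of LOC_Os02g47970 in YIL25 (0.16, SE 0.0378, limma adjusted p = 0.00814) and LOC_Os01g01689 in YIL25 (0.23) and in pOE (-0.26).

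LOC_Os01g71106 (chromosome 1, 41155827-41163821; 6257 bases) came nearest to a call among these 7 in pCPL. Its libraries held 1.94, 1.64 and 2.24 FPKM in Teqing2 and 4.45, 4.56 and 4.27 in pCPL, a 2.28-fold ratio of means but a log2 fold change of 0.89 on the log2(FPKM + 1) scale (SE 0.110, limma adjusted p = 6.15e-05). In pOE they held 2.84, 2.65 and 2.97 FPKM against 4.68, 5.28 and 4.69 in Teqing3. Its interval overlaps the entry Os01g0937366.

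The 3 longest genes tested in both tables differed from Teqing by less than 2-fold, and not in the same direction. LOC_Os05g44560 (chromosome 5; 9536 bases) stood at 2.17, 2.49 and 2.44 FPKM in Teqing2 and 2.76, 2.76 and 2.72 in pCPL, which missed the threshold (log2 fold change 0.16, limma adjusted p = 0.193; -0.16 without the length trend), and was higher in pOE, at 3.94, 3.83 and 4.04 against 2.95, 3.03 and 3.17 in Teqing3 (0.29, limma adjusted p = 0.0203). LOC_Os10g21810 (chromosome 10; 8413 bases) was lower in pOE, at 6.90, 6.91 and 6.93 FPKM against 10.4, 9.66 and 10.3 (-0.49, limma adjusted p = 0.000195), and in pCPL, at 7.79, 7.997 and 7.74 against 8.46, 8.85 and 8.75, it missed the threshold (-0.13, limma adjusted p = 0.111). LOC_Os12g13440 (chromosome 12; 8231 bases) was higher in pCPL (0.32, limma adjusted p = 0.0177) and lower in pOE (-0.54, limma adjusted p = 0.00121).

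The 3 long genes with a description in the study were all expressed at about 1 FPKM or less, below the limit for a test in the pCPL and pOE tables. Because the study's gene lists are of genes it had called changed in these same libraries, the directions of these 3 are no independent evidence. LOC_Os09g37240, with a glutathione S-transferase C-terminal domain, is of a kind with enzymes that join glutathione to other molecules. It stood at 0.0511, 0.0283 and 0.0955 FPKM in Teqing2, 0.652, 0.754 and 0.584 in pCPL, 0.831, 0.680 and 0.843 in Teqing3, and 0.425, 0.374 and 0.332 in pOE. The Teqing2 libraries stood apart from the other 9, the Teqing3 libraries among them.

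The retrotransposon LOC_Os08g10244, of a class of mobile elements that copy themselves through RNA, stood at 0.271, 0.239 and 0.358 FPKM in Teqing2 and 0.0204, 0.0538 and 0.0454 in pCPL, and at 0.130, 0.138 and 0.134 in Teqing3 and 0.358, 0.498 and 0.579 in pOE. Without overlap, pCPL was below its Teqing and pOE above its own. LOC_Os01g15560 stood at 0.323, 0.299 and 0.293 FPKM in Teqing1 and 1.05, 1.08 and 1.13 in YIL25, the one table in which it was tested (log2 fold change 0.68, SE 0.130, limma adjusted p = 0.00304; not called). It passed the filter there only through the YIL25 libraries, where it was high, so that its test in this direction is no independent evidence.

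At the length threshold, the genes just inside were LOC_Os09g06499 (6069 bases), LOC_Os10g38060 (6083) and LOC_Os07g36940 (6114), and those just outside were LOC_Os06g22550 (5989), LOC_Os09g10960 (5983) and LOC_Os02g50840 (5948). Outside it, LOC_Os02g50840 had means of 31.3 FPKM in Teqing2, 43.9 in pCPL, 49.95 in Teqing3 and 23.6 in pOE, and in it, as in LOC_Os07g36940 inside the threshold, Teqing3 was the highest group and pCPL the next. The means of LOC_Os09g10960 were 19.0, 27.1, 26.8 and 12.8 FPKM and those of LOC_Os06g22550 were 7.15, 10.5, 11.1 and 8.11. Inside it, LOC_Os09g06499 had 5.80, 4.72, 6.55 and 6.57 FPKM and LOC_Os10g38060 had 8.13, 9.33, 10.7 and 8.26. Levels inside and outside the threshold overlapped.

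Fold changes also went with length among the shorter genes. In pCPL the median log2 fold change was -0.16 for genes under 1000 bases, -0.03 from there to 2000, 0.08 to 3000, 0.13 to 4000, 0.23 to 5000, 0.19 to 6000 and 0.13 from 6000 to under 8000 bases. In pOE the order was opposite, from 0.22 under 1000 bases through -0.01, -0.15, -0.23, -0.31 and -0.25 to -0.36 in the class of 6000 to under 8000. In YIL25 the same classes had -0.41, -0.17, -0.06, 0.02, 0.04, 0.03 and 0.23, the last from 17 genes. The class of 8000 bases or more had 0.16 in pCPL, -0.15 in pOE and 0.03 in YIL25, from 3, 4 and 1 genes. Genes of 4000 to under 6000 bases therefore lay near those of 6000 or more in pCPL and pOE.

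Calls became rarer with length. In pCPL 18.8% of genes under 1000 bases were called, 9.93% of those of 2000 to under 3000, and 2.04% of those of 6000 to under 8000, and in pOE the shares were 21.8%, 11.2% and 8.33%. YIL25 went from 26.5% under 1000 bases to 6.06% at 5000 to under 6000, and had 17.6%, 3 of 17 genes, in the class above. The spread between replicates fell too: the median coefficient of variation over the 3 Teqing2 libraries, in genes of at least 5 FPKM there, was 6.32% under 1000 bases and 3.36% at 6000 to under 8000. Within the long genes themselves, length and log2 fold change had a rank correlation of -0.0019 over 52 genes in pCPL, 0.24 over 52 in pOE and -0.22 over 18 in YIL25, as a description over genes that share libraries.

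**Figure D5:**
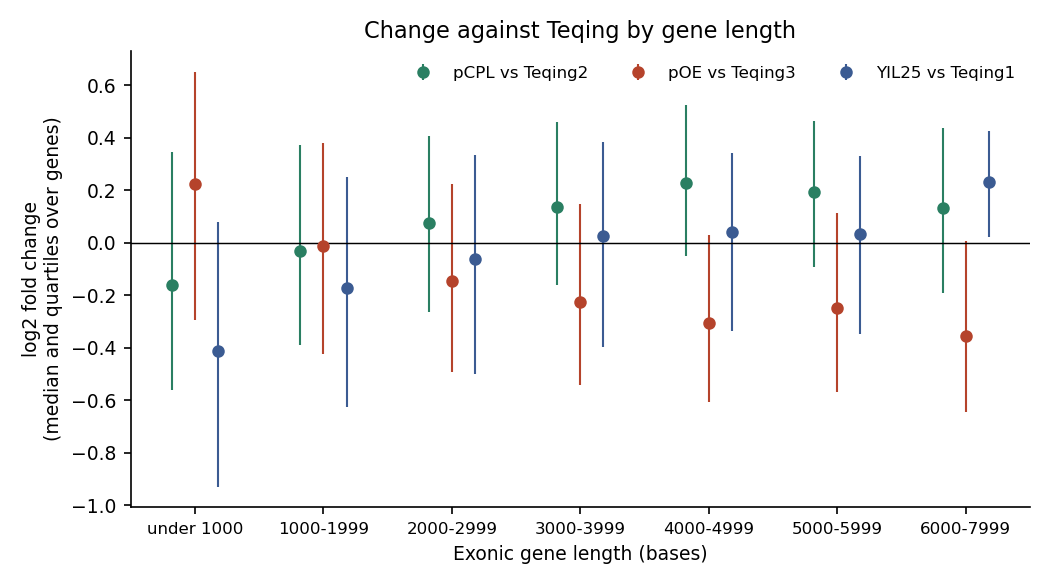
Median (points) and quartiles (bars) over genes of the log2 fold change on the log2(FPKM + 1) scale, by class of exonic length, for pCPL against Teqing2, pOE against Teqing3 and YIL25 against Teqing1. From the class under 1000 bases to that of 6000 to under 8000 the median goes from -0.16 to 0.13 in pCPL, from 0.22 to -0.36 in pOE and from -0.41 to 0.23 in YIL25; removing each library's length trend turns the pCPL median of the long genes to -0.15.

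The Teqing groups also differed from each other in the long genes. Over the 53 genes tested in pCPL or pOE, the median of Teqing3 minus Teqing2 was 0.27 on the log2(FPKM + 1) scale, with 38 positive and 15 negative values, beside 0.02 over all genes. The same difference was -0.15 for pCPL minus Teqing3, -0.03 for pOE minus Teqing2 and -0.23 for pOE minus pCPL. Teqing1 minus Teqing2, over 17 genes, was 0.72, beside 0.10 over all genes.

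The share of reads in the 83 genes had the same order of groups. It was 0.350% ± 0.00435 in Teqing2, 0.364% ± 0.00499 in pCPL, 0.409% ± 0.0105 in Teqing3 and 0.322% ± 0.00207 in pOE (SD, n = 3 each). The pOE libraries were thus the lowest and the Teqing3 libraries the highest, with no overlap between the 4 groups. The median difference between the untransformed groups Teqing3 and Teqing2, 0.27, was larger than that of pCPL against Teqing2, 0.14 (-0.15 without the length trend), and smaller in size than that of pOE against Teqing3, -0.36; its part in the comparisons of the lines was not tested. Nor was the part of RNA quality or library making, and in bulk callus fewer cells of a type and less RNA per cell cannot be told apart.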

How the data were processed

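Paired-end RNA-seq libraries of callus (18 libraries, 6 groups of 3) were processed by the authors with CASAVA 1.8, bcl2fastq, TopHat2 and Cufflinks on IRGSP-1.0 (MSU7 annotation), and the authors deposited FPKM per gene in 3 tables normalised separately. TopHat2 and Cufflinks versions and strand setting were not given in the sources used here. Deposited columns of fold changes and p-values, which hold the authors' own comparisons, were not used. FPKM multiplied by length gave whole reads within 0.1 read for 100% of values in the pCPL and pOE tables; a voom fit on these reads was an alternative chosen after seeing the data. Read numbers were not recovered for the YIL25 table, so its depth is unknown here, and lengths of its genes came from the pCPL table by gene identifier.

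Every gene whose mean exceeded 1 FPKM in the line or in its Teqing was tested with limma 3.58.1 (R 4.3.3; lmFit and eBayes with a trended prior) on log2(FPKM + 1), with Benjamini-Hochberg adjustment over all genes tested, each line against its own Teqing. The fit was tested on simulated data. Alternatives were median-of-ratios scaling, filters, pseudocounts, a loess fit (span 0.3) of level on gene length taken out of each library, a replicate block and leaving out each library.

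The genes and lists were chosen with earlier results of these data known. Genes were named by rule: in each comparison up to 5 called increases and 5 called decreases with at least 5 FPKM in a group and no overlap, the 5 most abundant, the 3 longest tested, the 3 on each side of the length threshold, any called in all 3 comparisons, and BOC1. The functional groups and cell type markers that were to be described could not be matched to loci, since the tables used here hold no descriptions, and give no result.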

Additional observations from a re-analysis of the deposited data

How the results depend on the processing

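Of 479 alternative values for the named genes, 465 kept their direction and their side of the threshold. Counts of called genes were 1 in pCPL, 4 in pOE and 3 in YIL25. A threshold of adjusted p under 0.05 alone gave 36, 42 and 13, and a length of 8000 bases or more gave 0 in each, from 3, 4 and 1 tested genes (limma; 1, 3 and 0 of them reached an adjusted p under 0.05 there). In pCPL the count was 3 with a pseudocount of 0.1, 2 without the length trend and 4 with voom. Without the length trend, 1607 of all 21659 genes were called higher and 1337 lower in pCPL. In pOE a pseudocount of 0.1 gave 6, removal of the length trend 3 and voom 7, and leaving out single libraries gave 2 to 4. The pCPL median of 0.14 became 0.029 with no filter, 0.086 with a filter at 5 FPKM, 0.16 with a pseudocount of 0.1, 0.18 with voom, -0.15 without the length trend and -0.16 against Teqing3. The pOE median of -0.36 became -0.26, -0.41, -0.40, -0.39, -0.030 and, against Teqing2, -0.030 in the same order. The YIL25 median of 0.23 became 0.42 with median-of-ratios scaling, 0.16 with no filter, 0.17 without the length trend, 0.19 without genes that overlap another entry, and 0.20 to 0.25 with single libraries left out. Removing the trend on length by its construction takes out differences that go with length.

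Without the length trend the log2 fold change turned to -0.21 for LOC_Os03g06510, -0.16 for LOC_Os05g44560 and -0.079 for LOC_Os10g38060 in pCPL, to 0.13 for LOC_Os03g02970 in pOE and to -0.036 for LOC_Os01g74610 in YIL25. LOC_Os02g39910 in pCPL then passed the call at -1.08. Leaving out pOE replicate 3 turned LOC_Os09g06499 in pOE from 0.0047 to -0.0017 (range over single libraries left out -0.0017 to 0.012), leaving out YIL25 replicate 3 turned LOC_Os01g74610 in YIL25 to -0.0035 (range -0.0035 to 0.050), and leaving out pOE replicate 1 took LOC_Os03g06510 in pOE to 0.98. The cause was not tested.

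Replicate numbers are shared between groups, but same-numbered libraries did not deviate together (correlations of -0.034 to 0.0087). With the replicate number as a block the counts stayed at 1, 4 and 3; over all genes of the YIL25 table the calls went from 689 higher and 1041 lower to 493 and 775.

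The tests rest on 3 libraries a group. Tested long genes had at least 74 reads in every pCPL, pOE, Teqing2 and Teqing3 library, with a median of 680 for the lowest library, so counting error is small for most of them, while genes at a few reads were not tested. An FPKM of 0 sets no lower bound on a fold, and none is given.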

Other observations

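Entries of 6000 bases or more without a locus identifier numbered 28 in the pCPL table. Only the 26 with a gene identifier beginning with Os were followed. In pCPL 7 of the 26 were tested, where the median log2 fold change was 0.59, with 3 called higher, 0 lower. In pOE 8 were tested, with a median of -0.94 and 3 called lower, 0 higher. Over all genes tested, 7.84% were called higher in pCPL and 8.90% lower in pOE. The direction of both medians was that of the genes with a locus identifier in the same comparison; the pCPL median of those genes turns to -0.15 without the length trend.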
